A study of Bos taurus with 11 samples.

Results

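Transcripts of 17 genes of the cell cycle and mitosis were measured in the livers of dairy cows in early lactation. The 17 genes were selected on the study's own contrast of cows in severe against mild negative energy balance: each had to stand in its list of genes that differed between the groups and to carry one of 53 cell cycle symbols. They are 17 of the 21996 genes counted, and the limit of that list was the study's own adjusted p-value, which was not used here. The other 36 symbols searched had no identifier in the name table of 413 genes and were not analysed here.

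The cows were multiparous Holstein-Friesians, labelled as 14 days after calving, although by the study's methods the day of slaughter followed the ovarian cycle and varied between cows. The 5 cows in mild negative energy balance (MNEB), the control group, were fed ad libitum and milked once daily, and the 6 cows in severe negative energy balance (SNEB) had restricted feed and were milked more often. From each group the study had kept cows at the extremes of energy balance. PolyA RNA from a piece of whole liver was sequenced, so each value mixes all cell types of the organ. Gene counts summed to between 1774011 and 4005322 reads per MNEB cow and between 1869837 and 6852142 reads per SNEB cow. Levels are given as counts per 1000000 gene reads after TMM scaling (CPM), and CPM values of different genes were not compared, since they depend on transcript length.

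Most hepatocytes of an adult liver rest outside the cell cycle and return to it after injury or loss of tissue. A dividing cell copies its DNA, builds a spindle, attaches its chromosomes to it by their kinetochores, separates the copies and splits in the middle. The transcripts for the steps after DNA copying accumulate together late in the cycle. In a piece of tissue, fewer dividing cells and less RNA per dividing cell cannot be told apart.

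The 17 genes rose and fell together from cow to cow, within both groups. Their summed level ran from 73.5 CPM in SNEB6 to 1089 CPM in MNEB1, a ratio of 14.8. In the MNEB cows 1 to 5 the sum was 1089, 102, 128, 215 and 725 CPM. In the SNEB cows the lowest sum was 73.5 CPM, the median 150.5 CPM and the highest 864 CPM, in SNEB2. High sums thus stood in MNEB1, MNEB5 and SNEB2, followed by SNEB1 with 450.2 CPM, and the groups overlapped over most of their range. The group means of the sum were 452 ± 437 CPM in MNEB (SD, n = 5) and 305 ± 304 CPM in SNEB (SD, n = 6), so that each SD was about as large as its mean.

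**Figure D1:**
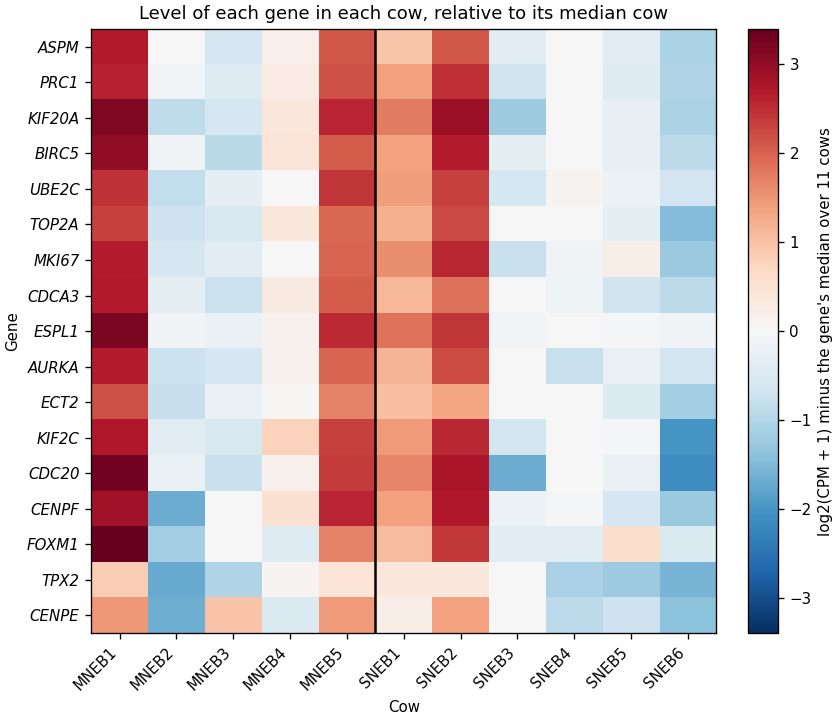
Level of each of the 17 genes (rows) in each cow (columns), as log2(CPM + 1) minus the gene's median over the 11 cows, red above and blue below it. The black line divides 5 MNEB from 6 SNEB cows, and the rows are ordered by their correlation with the median of the other 16 genes. MNEB1, MNEB5, SNEB2 and SNEB1 are red in almost every row.

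MKI67 encodes a protein that coats mitotic chromosomes and is the usual histological marker of proliferating cells. Its level in MNEB cows 1 to 5 was 224, 22.9, 26.6, 34.3 and 138 CPM. In SNEB cows it had a lowest value of 13.8, a median of 35.5 and a highest value of 206 CPM. The 2 group medians differed little and in the opposite direction to the group means, which were 89.2 ± 89.4 CPM in MNEB and 69.0 ± 74.3 CPM in SNEB (SD, n = 5 and 6). TOP2A, the topoisomerase that untangles the copied DNA strands, was at 65.5, 7.28, 8.28, 16.1 and 50.5 CPM in MNEB cows 1 to 5. In SNEB cows its lowest value was 3.85, its median 12.4 and its highest 61.8 CPM. For both genes the cows with high values were those with a high sum, and the groups overlapped.

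FOXM1 is a transcription factor that switches on many genes of the late cell cycle. It was the scarcest gene in reads after CENPE, with a mean of 26.5 reads per cow. Its levels in MNEB cows 1 to 5 were 34.3, 0.520, 2.36, 1.49 and 9.85 CPM, and in SNEB cows the lowest, median and highest were 1.38, 2.83 and 16.7 CPM. MNEB1 stood well above every other cow for this gene, and the value of MNEB2 rests on 1 read. As for MKI67, the SNEB median was the higher of the 2 group medians, while the SNEB mean was the lower.

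**Figure D2:**
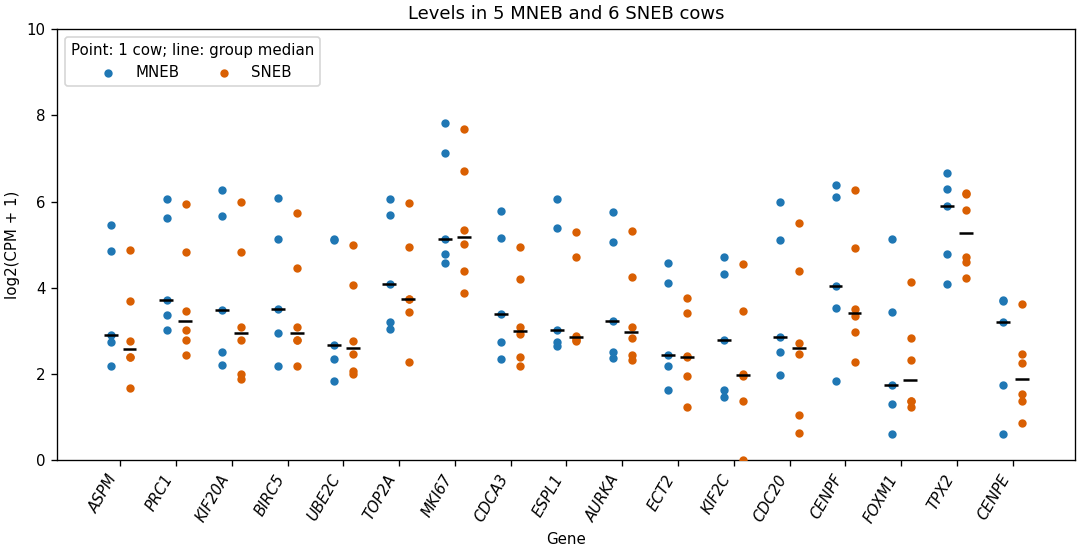
Level of each of the 17 genes as log2(CPM + 1), 1 point per cow, blue for 5 MNEB and orange for 6 SNEB cows, with a black line at each group's median. In each of the 17 genes the points of the groups overlap, and in most genes 2 cows of each group lie well above the others.

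Several of the genes build and steer the spindle. AURKA is a kinase of the spindle poles, and TPX2 is the microtubule protein that activates it. AURKA ranged from 4.16 to 53.0 CPM in MNEB and from 4.04 to 38.8 CPM in SNEB cows. TPX2 followed the others less closely. Its levels in MNEB cows 1 to 5 were 101, 16.1, 26.6, 58.8 and 77.1 CPM, and in SNEB cows the lowest, median and highest were 17.9, 40.2 and 71.97 CPM. It was also fairly high in MNEB4 and, at 55.3 CPM, in SNEB3, cows in which most of the other genes were near or below their median. ASPM, a protein of spindle poles known from inherited microcephaly, ranged from 3.55 to 42.7 CPM in MNEB and from 2.20 to 28.4 CPM in SNEB.

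Other members act where chromosomes meet the spindle. CENPF, a large protein of the kinetochore, was at 82.1, 2.60, 10.6, 15.5 and 68.2 CPM in MNEB cows 1 to 5. In SNEB cows its lowest, median and highest levels were 3.85, 9.75 and 75.9 CPM. CENPE, a motor that moves chromosomes to the middle of the spindle, was at 12.3, 0.520, 8.28, 2.39 and 11.9 CPM in the same MNEB cows. In SNEB cows it had a lowest level of 0.826, a median of 2.83 and a highest level of 11.3 CPM. CENPE was the one gene of the 17 whose 4 highest cows were not MNEB1, MNEB5, SNEB2 and SNEB1, since MNEB3 took the place of SNEB1. It had a mean of only 17.8 reads per cow, and its values are the least precise. KIF2C, a motor-like protein that takes microtubules apart and corrects wrong attachments, ranged from 1.77 to 25.3 CPM in MNEB cows and reached 22.5 CPM in SNEB2. It had 0 reads in SNEB6, where a count of 0 allows up to 0.826 CPM (3 reads, counting error only). BIRC5, or survivin, a subunit of the complex that checks these attachments, ranged from 3.55 to 66.9 CPM in MNEB and from 3.58 to 52.6 CPM in SNEB.

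Further members act at the exit from mitosis or, for CDCA3, at the entry into it. CDC20 activates the anaphase-promoting complex, the ubiquitin ligase that starts the separation of chromosomes. Its levels in MNEB cows 1 to 5 were 62.5, 4.68, 2.96, 6.27 and 33.6 CPM. In SNEB cows the lowest, median and highest were 0.551, 5.08 and 44.2 CPM. CDC20 had the largest spread between cows of the 17 genes, with an SD within groups of 1.83 on the log2(CPM + 1) scale, and its lowest value rests on 2 reads. UBE2C, the ubiquitin-conjugating enzyme that works with this ligase, ranged from 2.60 to 33.8 CPM in MNEB and from 3.03 to 30.9 CPM in SNEB. ESPL1, or separase, the protease that cuts the rings holding chromosome copies together, ranged from 5.32 to 66.2 CPM in MNEB and from 5.78 to 38.4 CPM in SNEB. CDCA3, which takes part in entry into mitosis, ranged from 4.14 to 54.2 CPM in MNEB and from 3.58 to 30.04 CPM in SNEB.

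The last step is the division of the cell body. PRC1 bundles the microtubules midway between the separating chromosomes, and its levels in MNEB cows 1 to 5 were 66.2, 9.35, 7.09, 12.2 and 48.0 CPM. In SNEB cows its lowest, median and highest levels were 4.41, 8.55 and 60.5 CPM. KIF20A, a motor of the same midzone, was at 76.0, 3.64, 4.73, 10.1 and 49.8 CPM in MNEB cows 1 to 5. In SNEB cows the lowest, median and highest were 2.68, 6.73 and 62.6 CPM. ECT2, the exchange factor that starts the contractile ring, ranged from 2.08 to 22.8 CPM in MNEB and from 1.38 to 12.5 CPM in SNEB. MNEB1 had the highest level in all 17 genes.

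The spread between cows was wide against that of other genes. Within groups the SD of log2(CPM + 1) had a median of 1.38 over the 17 genes and ran from 0.97 in TPX2 to 1.83 in CDC20. Over the 11847 genes with a mean of at least 10 reads per cow the median SD was 0.31 and the 95th percentile 0.72. All 17 genes lay above that percentile. The genes were not matched for read number, and counting error adds to the SD where reads are few. Of the macrophage and granulocyte genes described below, TREM2, GPNMB (both at percentile 99.3) and MARCO (95.9) also lay above it. S100A12 (94.1) and TIMD4 (78.3) did not. In each cow, the median over the 17 genes of the log2 level relative to each gene's median cow was 2.69, -0.70, -0.53, 0.15 and 2.07 in MNEB cows 1 to 5. In SNEB cows 1 to 6 it was 1.36, 2.39, -0.30, 0.00, -0.29 and -1.08. Its SD was 1.55 in MNEB (n = 5) and 1.28 in SNEB (n = 6).

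As deviations from the group means, the 136 pairs of the 17 genes had a median Pearson r of 0.947 over the 11 cows. The lowest value was 0.702. These deviations leave out the group difference. The genes were still selected on the same cows, so the correlations are not free of that selection. The median Spearman rho was 0.891. Without MNEB1 and SNEB2, the 2 cows farthest from the median cow, the median r over the other 9 was 0.907 and the lowest 0.478. All these correlations share the same libraries. With the median of the other 16 genes, CENPE had the lowest r, 0.793, and TPX2 had 0.848, while the other 15 had values from 0.929 in FOXM1 to 0.988.

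Of the cows with high sums, MNEB1, MNEB5 and SNEB1 were high in each of their 2 lanes. SNEB2 was sequenced in 1 lane only, in run C, with 864 CPM, so its level was not repeated. Lanes of a cow were repeats of the same library, so they repeat neither the library nor the piece of liver. The libraries were run in 3 sequencing runs, here called A, B and C. MNEB1 had a sum of 1155 CPM in run B and 1017 CPM in run C, MNEB5 had 746 and 706 CPM, and SNEB1 had 490.5 and 421 CPM. At the other end SNEB6 had 69.1 CPM in run B and 77.6 CPM in run C. Lanes of the same cow differed by a ratio of at most 1.22, in MNEB4. Within run B, with 7 cows, the sum ranged over a ratio of 16.7 and the pairs of genes had a median r of 0.947. Within run C, also with 7 cows, the ratio was 13.1 and the median r 0.963. Run A held only MNEB4 and SNEB4, too few cows for a correlation. The 3 shallowest cows, MNEB3 with 1774011, SNEB3 with 1869837 and MNEB2 with 1994076 reads, had low sums of 128, 152 and 102 CPM. Of the cows with high sums, MNEB1, MNEB5 and SNEB1 had 4005322, 3951977 and 4204138 reads, and SNEB2 had 2334234. SNEB4, the deepest cow with 6852142 reads, had a sum of 149 CPM, and the part of depth in the levels was not tested.

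**Figure D3:**
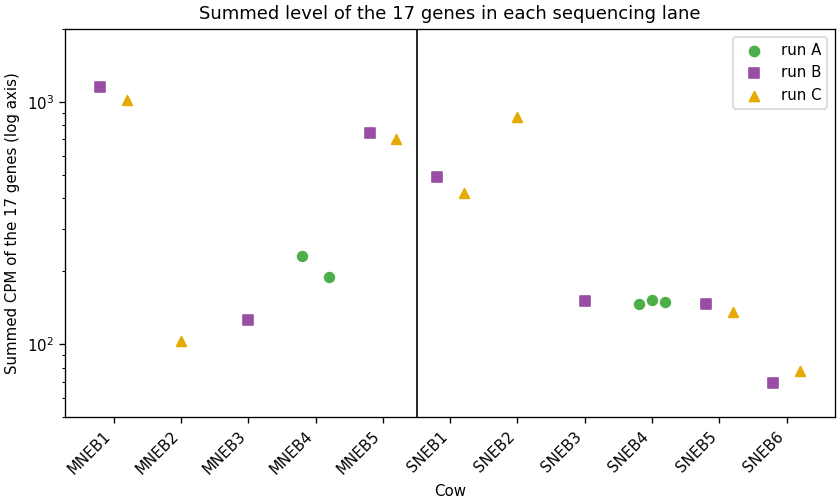
Summed level of the 17 genes in CPM (log axis) in each sequencing lane, by cow, with a marker for each of the 3 runs. The black line divides MNEB from SNEB cows. Lanes of the same cow lie close together, while cows within run B range from 69.1 to 1155 CPM.

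The contrast of SNEB against MNEB is given as a description only, since the genes were chosen by it. All 17 genes had a lower fitted level in SNEB, a direction that is not independent of how they were chosen, with a median log2 fold change of -0.75 and a range from -1.05 in FOXM1 to -0.39 in TPX2. Over all 13960 genes tested the median was -0.01. Standard errors of the 17 values ran from 0.46 to 0.89, and in each gene the difference was smaller than 2 standard errors. By edgeR's quasi-likelihood test 0 of the 17 genes were called at an adjusted p under 0.1, where 76 of all genes tested, or 0.544%, were called. At an unadjusted p under 0.05 there were again 0 of 17 by edgeR, against 8.35% of all genes, and DESeq2 called 0 of 17 at an adjusted p under 0.1, against 2.21% of the genes it tested. In 0 of the 17 genes were the groups free of overlap, against 1.30% of all genes tested.

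The group difference moved most with 2 single cows. Without MNEB1 the median log2 fold change of the 17 genes was -0.09, and 3 of them, FOXM1 (0.34), MKI67 (0.26) and BIRC5 (0.11), had a log2 fold change above 0. Without SNEB2 the median was -1.48, and all 17 were lower in SNEB. By the medians of the groups instead of their means, 15 of the 17 genes were lower in SNEB and 2, MKI67 and FOXM1, were higher.

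**Figure D4:**
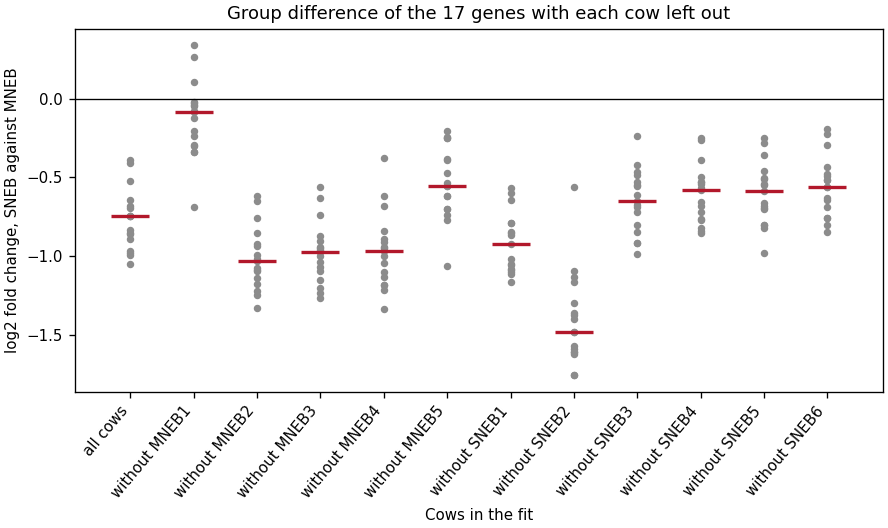
Fitted log2 fold change of SNEB against MNEB for each of the 17 genes (grey points) and their median (red line), with all 11 cows and with each cow left out. The median lies at -0.75 with all cows, at -0.09 without MNEB1 and at -1.48 without SNEB2.

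Of a list of 54 genes of the G2 and M phases in common use, 15 had an identifier in the name table, 12 of them among the 17 genes. That table holds genes the study had selected on the same contrast, so counts over its genes are not independent evidence of a direction. Of the other 3, HJURP, the chaperone that places the centromere histone, was at 60.8, 2.60, 3.55, 7.46 and 38.4 CPM in MNEB cows 1 to 5, and CKAP2, a microtubule-bound protein of dividing cells, reached 99.7 CPM in SNEB2. PSRC1, a regulator of spindle microtubules, ranged from 0.591 to 24.8 CPM in MNEB and from 1.38 to 12.5 CPM in SNEB. By edgeR 0 of the 15 were called at an adjusted p under 0.1 (0.544% of all genes tested) and 0 were at an unadjusted p under 0.05 (8.35%), and DESeq2 called 0 (2.21%). At these shares counts of 0 among 15 genes say little about the list. Their median log2 fold change was -0.75. A list of 43 genes of the S phase had 0 with an identifier and was not analysed here.

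Of 37 regulators of entry into the cycle, 2 had an identifier. CDKN2C, an inhibitor of the kinases that open the cycle, followed the 17 genes, with an r of 0.959 with their per-cow median (11 cows, deviations from group means). It was at 26.5, 4.16, 4.14, 7.16 and 12.6 CPM in MNEB cows 1 to 5, and at a lowest, median and highest of 2.75, 4.41 and 19.2 CPM in SNEB cows. CDKN1A, the p53-induced inhibitor p21, did not, with an r of 0.231. Its levels were 306, 438, 306, 144 and 425 CPM in MNEB cows 1 to 5 and had a lowest, median and highest of 112, 199 and 293 CPM in SNEB cows. Neither was called by edgeR (adjusted p = 0.798 for CDKN2C and 0.440 for CDKN1A) or DESeq2, and 1 of the 2, CDKN1A, had an unadjusted p under 0.05 by edgeR, as did 8.35% of all genes tested. Both genes come from the name table selected on this contrast, so neither value is independent evidence of a difference.

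The per-cow median of the 17 genes was then compared with 11830 other genes with a mean of at least 10 reads per cow, as deviations from group means over the 11 cows. The r was over 0.9 for 80 genes, or 0.676%, and under -0.9 for 10, and the middle 90% of genes lay between -0.66 and 0.66. Over so few cows some unrelated genes reach a high r, so a place among the 80 is a description and no sign of a shared function. The 10 genes with the highest r had values from 0.979 to 0.997, and 6 of them had a name. Only genes of the name table, 365 of those compared, could carry a name, and that table was selected on the same contrast. TROAP, a microtubule-bound protein of the spindle, had an r of 0.997 and levels of 103, 3.64, 3.55, 8.95 and 62.7 CPM in MNEB cows 1 to 5. HJURP followed with 0.995, KIFC1, a minus-end-directed spindle motor, with 0.991, CCNF, or cyclin F, with 0.984, CKAP2 with 0.982 and C15orf42, or treslin, which helps to start DNA replication, with 0.980. The 4 others had only an identifier: ENSBTAG00000002298 with 0.996, ENSBTAG00000007102 with 0.987, ENSBTAG00000021181 with 0.983 and ENSBTAG00000007237 with 0.979.

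**Figure D5:**
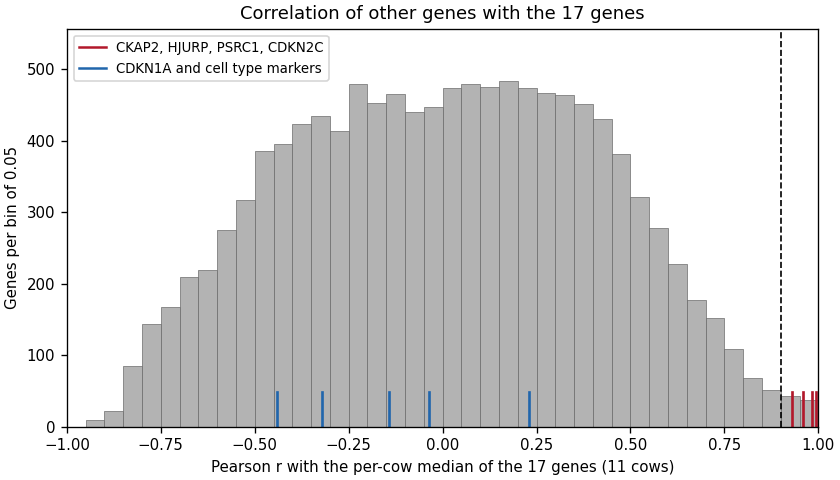
Number of genes by Pearson r with the per-cow median of the 17 genes, over 11 cows as deviations from group means, for 11830 genes with a mean of at least 10 reads. The dashed line stands at 0.9. Red marks show CKAP2, HJURP, PSRC1 and CDKN2C, and blue marks show CDKN1A and the 4 markers of other cell types, from -0.440 to 0.231.

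Few markers of other liver cells had an identifier. Of 10 macrophage and Kupffer cell markers 2 did: TIMD4, a receptor for dying cells, had an r of -0.142 with the per-cow median of the 17 genes, and MARCO, a scavenger receptor and the more abundant in reads, had -0.037. Their summed level was 158, 277, 125, 221 and 220 CPM in MNEB cows 1 to 5 and 101, 136, 255, 78.9, 75.6 and 143 CPM in SNEB cows 1 to 6. Of the cows with high levels of the cell cycle genes, MNEB5 was among the 4 highest in this sum and SNEB1 among the 4 lowest. TREM2 and GPNMB, genes of lipid-laden macrophages that were not on the list and were chosen after their values were seen, had an r of 0.845 and 0.747, so the macrophage genes measured did not all run the same way. Of 8 granulocyte markers S100A12 alone had one, with an r of -0.440. Its levels were 10.8, 36.9, 18.9, 16.4 and 27.04 CPM in MNEB cows 1 to 5 and 64.2, 22.9, 58.5, 46.3, 21.2 and 65.5 CPM in SNEB cows 1 to 6, so that both high and low levels occurred among the cows with a high cell cycle sum. Of 10 erythroid markers 1 did, a beta globin gene with the bovine name HBB, at 49.9 CPM in MNEB2 and at most 1.19 CPM in the other 10 cows, with an r of -0.321. Markers of hepatocytes, bile duct cells, endothelium, stellate cells, T and NK cells and B cells had 0 identifiers and were not analysed here, and which cells carried the 17 transcripts was not tested.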

How the data were processed

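The counts used here cover 11 livers, sequenced as single reads in 19 lanes. By the study's account a further MNEB cow was sequenced but left out of its test for differential expression, because the cow later fell ill. Per the submitters' processing notes and the study's methods the authors used CASAVA 1.4, Bowtie, SAMtools and HTSeq to align reads to the BCM4 cattle genome and deposited raw counts per gene and lane. By the study's account, putative PCR duplicates (reads at the same genome position) had been removed in each lane before counting. Here the counts of a cow's lanes were summed. To look for a library deposited under 2 names, counts of cow pairs within a group were compared with counting error alone. The mean chi-square per gene was 5.58 to 15.6, and no pair was treated as 1 sample. The fit took the 13960 genes that reached 5 reads in some cow. It used edgeR 4.0.16 (quasi-likelihood, TMM scaling, R 4.3.3) with Benjamini-Hochberg adjustment over these genes, and 0.1 was the limit for a call. DESeq2 1.42.0 was the alternative test. CPM were TMM-scaled, and log2 levels used a pseudocount of 1. Spread and correlations were computed with pandas 2.3.3 and numpy 2.4.6 and the plots with matplotlib 3.10.9. The scripts were tested on simulated data.

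The genes and lists were chosen with earlier results of these data known. Gene names came from the study's supplementary name columns alone; its fold changes and p-values were not used. Named genes were all 17, list genes with an identifier, and the 10 other genes with the highest r with the per-cow median. A further 6 genes, PLAUR, PLIN4, TREM2, GPNMB, PPP1R3C and SLC13A5, were chosen after their values were seen. Other scalings, filters, tests, a replicate block, the run as a term, lane choices and each cow left out were tried. Sequences were not used here. Very low counts limit precision: intervals and floors cover counting error only, and reads shared by near-identical genes or overlapping genes could not be told apart.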

Additional observations from a re-analysis of the deposited data

Results flagged for a closer look

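In 70 groups of cows looked at, over 34 genes and the sum of the 17, 10 had a cow far from the others, measured as the gap to the nearest cow divided by the range of the group. The limits used pass 5% of groups by chance where values are normally distributed, the rate for skewed levels such as these was not measured, and these genes are not independent, since most share the same high cow. SNEB2 was the high cow in SNEB for BIRC5 (gap of 0.647 of the range, 52.6 against 20.9 CPM in the next cow), CENPF (0.644, 75.9 against 29.5 CPM), CENPE (0.644, 11.3 against 4.54 CPM) and FOXM1 (0.690, 16.7 against 6.13 CPM). It was also high for HJURP (0.626), PSRC1 (0.716) and CDKN2C (0.684). MNEB1 was the high cow in MNEB for FOXM1 (0.724, 34.3 against 9.85 CPM). TIMD4, a macrophage receptor, was high in SNEB3 (0.637, 77.2 against 43.8 CPM). The beta globin gene was at 49.9 CPM in MNEB2 (0.980), against 1.01 CPM in the next MNEB cow, while the 17 cell cycle genes were low in that cow.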

How the results depend on the processing

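By edgeR under 7 other settings and with each cow left out, and by DESeq2 with all cows, 0 of the 17 genes, 0 of the 15 G2 and M genes and 0 of the 2 regulators were called. DESeq2 was not run with a cow left out. The median log2 fold change of the 17 ran from -0.86 to -0.52 in these 8 settings, DESeq2 included, with all 17 lower in SNEB, and from -1.48 to -0.09 with a cow left out. The number of all genes called was 290 with DESeq2, 34 with runs B and C only and 50 with 1 lane per cow, against 76, and ran from 40 to 125 with a cow left out. The cause of these shifts was not tested. The SD of the per-cow median within groups, pooled over both groups, was 1.41 in the main setting. It stayed between 1.33 and 1.55 in 4 settings, and between 1.25 and 1.46 with a cow left out. The median pair correlation stayed between 0.917 and 0.955, and between 0.936 and 0.960. Same-numbered cows of the 2 groups had correlations of 0.283, 0.007, 0.354, 0.026 and -0.055, so the numbers were not taken to pair them, and cows with the same number also shared their runs. A replicate block gave 80 genes called, 0 of the 17, and a median log2 fold change of -0.52. The S phase list could not be computed. KIF2C had 0 reads in SNEB6, and CENPE and FOXM1 had 1 read each in MNEB2, so levels are imprecise there.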

Other observations

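The genes in this paragraph were chosen after their values were seen, among the 365 named genes compared, and the correlations, on deviations from group means, are a description over 11 cows with no test. Outside cell division, PLAUR, the urokinase receptor, had an r of 0.892 with the per-cow median of the 17 genes, PLIN4, a lipid droplet protein, 0.845, TREM2, a receptor of lipid-laden macrophages, 0.845, and GPNMB, a glycoprotein of such macrophages, 0.747. GPNMB was at 363, 74.3, 74.5, 209 and 188 CPM in MNEB cows 1 to 5 and at 583, 475, 57.4, 563, 175 and 76.3 CPM in SNEB cows 1 to 6. SNEB4 was high in GPNMB and stood at the median of the cows in the cell cycle genes, so the match was partial. PLAUR and PLIN4 had higher levels in SNEB, opposite in direction to the 17 genes. TREM2 and GPNMB were also higher in SNEB, with log2 fold changes of 1.39 and 0.81, and neither was called by edgeR or DESeq2. PLAUR was at 3.91 ± 2.92 CPM in MNEB and 13.5 ± 9.19 CPM in SNEB, and PLIN4 at 8.25 ± 8.17 and 25.4 ± 12.2 CPM (SD, n = 5 and 6). Their log2 fold changes were 1.68 and 1.52, with an adjusted p of 0.284 and 0.323 by edgeR and of 0.066 and 0.094 by DESeq2, and both come from the name table selected on this contrast. At the other end PPP1R3C, a glycogen-targeting subunit of protein phosphatase, had the lowest r of the named genes, -0.821, and was at 156, 276, 479, 290 and 181 CPM in MNEB cows 1 to 5. SLC13A5, the citrate carrier of hepatocytes, had -0.743. The log2 fold changes of PPP1R3C and SLC13A5 were -0.64 and 1.12, and edgeR and DESeq2 called neither. Whether the fat or glycogen content of a liver moved with the 17 genes was not tested.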
